A study of Mus musculus with 81 samples.

Results

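Apol9a and Apol9b are members of the mouse apolipoprotein L family in the same gene cluster on chromosome 15. They were followed by symbol through 79 placed RNA-seq libraries of macrophages that lack or carry the histone variant H3.3, and they are 2 of the 54079 genes listed for every library. They were chosen by the log2 fold change of Apol9a between H3.3-deficient and WT cells on day 3 of culture, which is among the highest, so the day 3 values of both genes are given as a description without a test. Over all 15955 genes with enough reads in the time course, Apol9a was in place 3 by log2 fold change on that day and Apol9b in place 18.

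Apolipoprotein L proteins carry a domain with amphipathic helices that binds lipids and membranes, and human APOL1, the best known member, is the serum factor that lyses trypanosomes. Mouse APOL9 proteins are cytosolic, bind phosphatidylethanolamine and are known as products of interferon-stimulated genes (ISGs) with antiviral activity. Type I interferon signals through the receptor chains IFNAR1 and IFNAR2 to a complex of transcription factors that binds the interferon-stimulated response element (ISRE) of ISG promoters. Interferon-γ (IFNγ) has its own receptor and acts mainly at gamma-activated sites (GAS), and it also induces factors such as IRF1 that bind ISRE-like sequences.

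H3.3 is encoded by H3f3a and H3f3b. The cKO cells came from mice with both genes floxed and with Cre on both alleles of the lysozyme locus Lyz2 (LysM cre/cre), and the WT cells from floxed mice without Cre, so the presence of Cre and the loss of Lyz2 go with cKO in every comparison. The study's methods give a C57BL/6 background for the mice, which were male and female and 8 to 10 weeks old when marrow was taken. Bone marrow cells grown in L929-conditioned medium were sampled as progenitors on days 3 and 5 and as bone marrow-derived macrophages (BMDMs) on day 7, with 3 WT and 3 cKO libraries per day. A second experiment held day 8 BMDMs without treatment (3 WT, 2 cKO) and after 12 h of IFNγ (3 WT, 2 cKO). Peritoneal macrophages gave 3 WT and 3 cKO libraries. A further 18 libraries were from BMDMs grown with no antibody, with an isotype control antibody or with an antibody that blocks IFNAR1, 3 WT and 3 cKO for each arm. The last 27 were 3 sets of WT and cKO BMDMs and BMDMs labelled H3.3cKO:StingKO, H3.3cKO:MavsKO and H3.3cKO:Irf7KO, whose labels name a gene of innate sensing or interferon induction disrupted beside H3.3 and which are called double KOs here by these labels. STING relays cytosolic DNA sensing, MAVS relays RNA sensing, and IRF7 is the transcription factor that amplifies type I interferon production. The study lists the Sting and Mavs knockout lines that were crossed in with a mixed strain origin, and the Mavs line was backcrossed. The labels do not tie a set to a double KO, so preparation and double KO genotype cannot be told apart.

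In the mouse genome build GRCm38, Apol9a lies at chr15:77403789-77411135 on the minus strand and Apol9b at chr15:77729039-77736382 on the plus strand, 317904 bases apart, each with 3 exons in its main transcript. No other annotated gene overlaps either of them. Their main transcripts, Apol9a-201 of 1530 bases and Apol9b-201 of 1573 bases, were identical at 1477 of 1574 aligned positions (93.84%), with 52 mismatches and 45 gap positions. Of the 75-base stretches of Apol9a-201, 52.1% did not occur in any Apol9b transcript, and of those of Apol9b-201, 58.4% did not occur in any Apol9a transcript. Since STAR counts only reads with a single place in the genome, reads from the shared stretches are lost, and a count is less certain for the division between the 2 genes than for their sum.

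The promoters are alike as well, and the longest run common to the 250 bases before the first RefSeq start of each gene was 228 bases. A stretch is printed because it holds a match to the ISRE. The ISRE consensus (AGTTTC, a spacer of 2 bases, TTTC, any base and then C or T) was searched for on both strands of the RefSeq promoter windows (build GRCm38.p6, 250 bases before to 50 after each start), and the match is in capitals. The stretch is at chr15:77411106-77411185 (minus strand) for Apol9a and at chr15:77728989-77729068 (plus strand) for Apol9b.

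Apol9a: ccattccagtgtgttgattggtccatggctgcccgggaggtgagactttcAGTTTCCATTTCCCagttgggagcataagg

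Apol9b: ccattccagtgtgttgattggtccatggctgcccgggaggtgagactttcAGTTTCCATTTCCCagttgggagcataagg

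These 80 bases were the same in both genes. The match began 55 and 101 bases before the 2 RefSeq starts of Apol9a and 33 and 82 bases before those of Apol9b. The gene annotation used for the coordinates above starts both genes farther upstream, at the first base of the match. Of 32851 promoter windows, 56 (0.17%) held the ISRE consensus. It was not found in the windows of Apol7a, Apol7b, Apol7c, Apol7e, Apol8, Apol10a, Apol10b, Apol11a or Apol11b. Nor was it found in those of the interferon transcription factor genes Irf1, Irf3, Irf7, Irf9 and Stat2. The windows of Slfn4 and Oasl1, which were among the genes most like Apol9b in level (below), also lacked it. The GAS letters TTCNNNGAA, which read the same on both strands, occurred in 8.298% of windows and in none of those of Apol9a or Apol9b. A match of letters is a description and does not show that a factor binds there. Nor does the lack of a match show that a gene has no ISRE, since only this consensus and these windows were searched.

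Counts on genes per library ran from 14419697 to 20220329 (time course), 3614967 to 9879339 (day 8), 7625225 to 23381318 (peritoneal macrophages), 5295144 to 34380735 (antibody experiment) and 21492762 to 45564225 (sets and double KOs). H3f3a was at 1.21 to 15.3 CPM (counts relative to the library total, scaled between libraries by TMM) in the cKO libraries and 33.6 to 93.8 CPM in WT. H3f3b reads remained in cKO at up to 361 CPM, against 181 to 536 CPM in WT, and fell furthest in the antibody experiment. Lyz2 was at 1.69 to 81.9 CPM in cKO and at least 4465 CPM in WT. All 8 macrophage markers checked (Adgre1, Csf1r, Cd68 and others) were detected in every library. In the double KOs, Sting (Tmem173) was at 5.01 to 6.10 CPM in the libraries labelled H3.3cKO:StingKO against 68.2 to 91.6 CPM in the cKO sets, and Irf7 at 98.3 to 112 CPM in H3.3cKO:Irf7KO against 249 to 470 CPM. Mavs was at 37.2 to 37.9 CPM in the libraries labelled H3.3cKO:MavsKO, within the 36.0 to 51.6 CPM of the cKO sets, so the gene's level did not set these libraries apart. The part of the gene that was changed was not looked at here. The study reports the Mavs deletion in these cells from genotyping, quantitative PCR and RNA-seq tracks over the deleted exons. The labels call the replicates biological and do not say that each came from its own mouse, so p-values measure the spread between these libraries.

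Without IFNγ, WT macrophages had next to no Apol9 reads. Of 33 such WT libraries, 15 had no Apol9a read and 10 had no Apol9b read. The highest count in them was 9 for Apol9a and 48 for Apol9b, both in WT day 7 replicate 1. Of the 31 cKO libraries without the IFNAR1 antibody, none was at 0 for either gene. Their counts ran from 2 to 235 for Apol9a and from 13 to 871 for Apol9b. The day 3 libraries, which chose the genes, are among those of both genotypes. In bulk RNA, more cells with the transcript and more transcript per cell cannot be told apart.

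**Figure D1:**
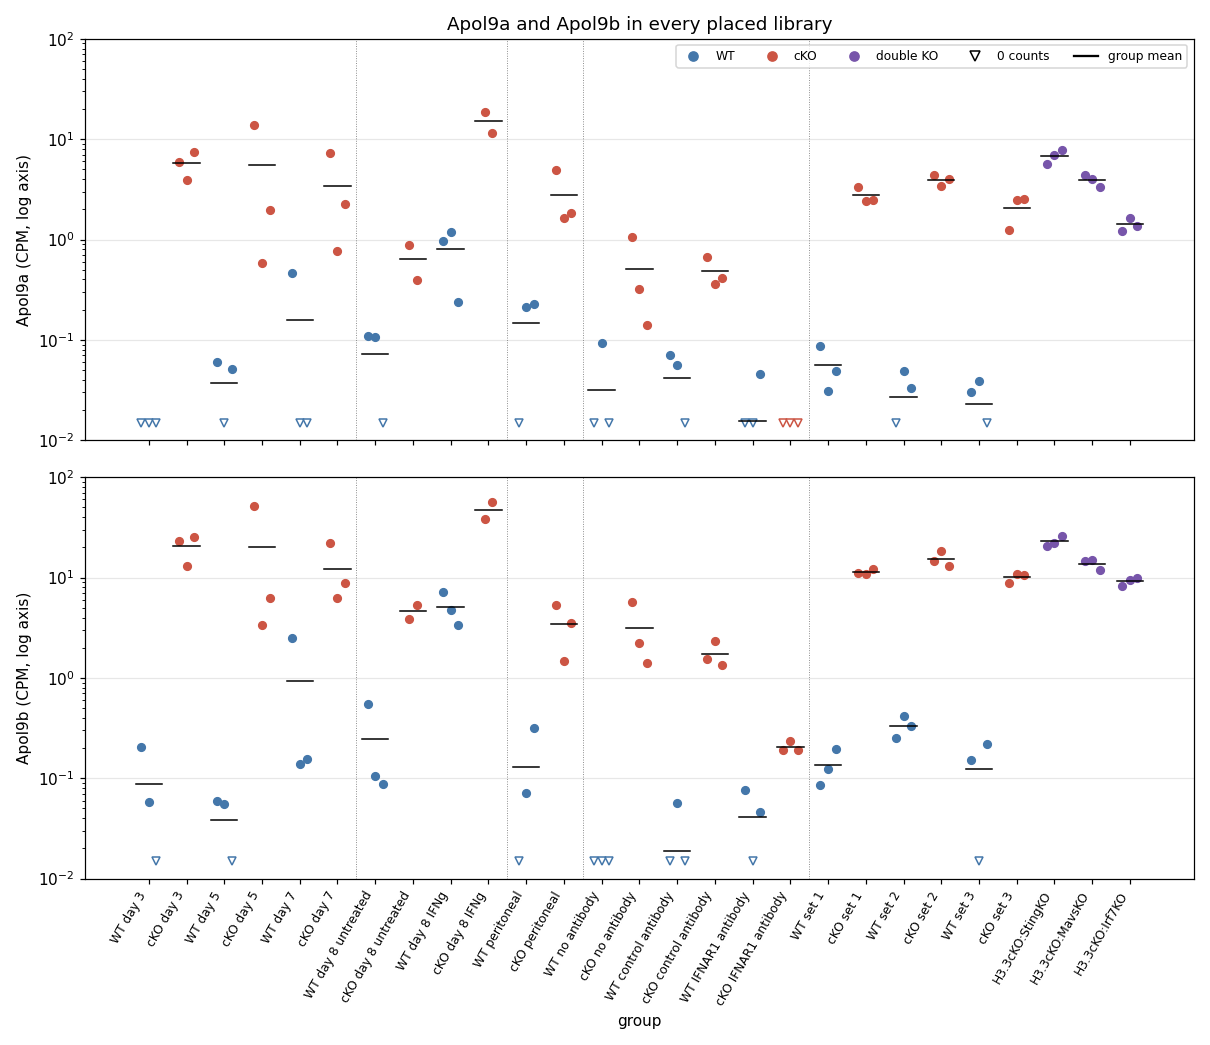
Level of Apol9a (upper panel) and Apol9b (lower panel) in CPM, on a log axis, in each of the 79 placed libraries by group. Points are libraries, black lines are group means, hollow triangles at the bottom are libraries with 0 counts, and dotted lines separate the experiments. Within each day, treatment, tissue or set the cKO points lie above the WT points, except for Apol9a under the IFNAR1 antibody. There Apol9a had no reads in cKO and Apol9b stayed at 0.190 to 0.236 CPM.

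On day 3, the 3 WT libraries had no Apol9a read, while the cKO libraries had 5.91, 3.90 and 7.42 CPM (94, 57 and 142 counts). Pooled over libraries, Apol9a was at least 97.4-fold higher in cKO, taking 3 counts over the WT group as the limit that 0 counts allow. Apol9b was at 0.205, 0.0587 and 0 CPM in WT (3, 1 and 0 counts) and at 23, 13.1 and 25.6 CPM in cKO. The ratio of pooled Apol9b counts was 261 (95% counting interval 102 to 959). The groups did not overlap for either gene. The fitted log2 fold changes were 9.65 (Apol9a, which depends on the constant added to counts because WT was at 0) and 7.86 (Apol9b). These are the values that chose the genes. Of the 15955 genes tested on this day, 7.73% were called, where called means an adjusted p under 0.05 by the quasi-likelihood test of edgeR. The genes ranked just above Apol9a were Cd209g (10.52), a C-type lectin gene, and Klhl29 (9.82). The next 3 below it were Grhl2 (9.65), a transcription factor of epithelia, Ramp3 (9.41), which encodes a partner protein of the calcitonin receptor family, and Ifi213 (8.88), a gene of the interferon-inducible PYHIN family. Like Apol9a, most of them had no or almost no WT reads (0 to 4 counts over the 3 WT libraries), so their order is not firm.

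On day 5 both genes were higher in cKO. WT libraries had 0.0597, 0 and 0.0516 CPM of Apol9a (1, 0 and 1 counts), and cKO libraries 13.9, 0.589 and 1.95 CPM. Replicate 1 stood far above the other cKO libraries. The log2 fold change of Apol9a was 6.95 (SE 1.60, with an adjusted p of 0.0315). Apol9b was at 0.0597, 0.0552 and 0 CPM in WT and at 51.6, 3.34 and 6.20 CPM in cKO, with replicate 1 again the highest and every cKO library above every WT library. Its log2 fold change was 8.85 (SE 1.55, adjusted p 0.00764), first of the 15955 genes by log2 fold change, and the ratio of pooled counts was 519 (counting interval 143 to 4293). In this comparison 2.83% of genes were called. The call of Apol9a was lost without cKO replicate 1 (log2 fold change 4.85, adjusted p 0.194) and without WT replicate 1, 2 or 3 (7.33, 6.46 and 7.25, adjusted p 0.110, 0.144 and 0.140). That of Apol9b was lost without WT replicate 2 (9.19, adjusted p 0.0509) or 3 (8.30, adjusted p 0.0591), and with only the day 5 groups in the model both were lost (6.97 and 8.86, adjusted p 0.106 and 0.0702). cKO day 5 replicate 1 also had the highest sum over 9 neutrophil markers of the 6 day 5 libraries, 1858 CPM against 594 to 704 CPM, with all 9 markers detected. Its summed level of interferon effector genes (described below) was also the highest of the 6 libraries, at 6402 CPM. The other cKO day 5 libraries had 1202 and 1436 CPM of these genes, and the WT day 5 libraries 189 to 568 CPM. The part of the neutrophil markers or of the interferon response in its Apol9 level was not tested.

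On day 7 the fold changes were smaller and did not pass the test. Apol9a was at 0.469, 0 and 0 CPM in WT and 7.29, 0.761 and 2.26 CPM in cKO. Apol9b was at 2.50, 0.140 and 0.155 CPM in WT and 21.9, 6.27 and 8.76 CPM in cKO. The groups did not overlap for either gene, but WT replicate 1 stood well above the other WT libraries. In this comparison 1.40% of genes were called. The log2 fold changes were 4.30 (SE 1.31, adjusted p 0.118) for Apol9a and 3.65 (SE 1.01, adjusted p 0.0822) for Apol9b. Equal replicate numbers met the rule for pairing on day 7, with correlations of 0.153 to 0.467. Even so, cKO replicate 2 correlated more with a WT library of another number (0.359) than with that of its own (0.153). With the number as a replicate block the log2 fold changes were 4.45 (adjusted p 0.0250) and 4.10 (adjusted p 0.00561), both called. Without WT day 7 replicate 1 the log2 fold changes were 8.90 and 6.31, the latter called (adjusted p 0.0235). Without cKO day 5 replicate 1, which is in the model for the spread, they were 4.31 and 3.67 and both called (adjusted p 0.04996 and 0.0221).

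Between days 5 and 7, Apol9b moved by a log2 fold change of 4.47 (SE 1.99, adjusted p 0.260) in WT, where 0.238% of genes were called, and of -0.72 (SE 0.83, adjusted p 1.0) in cKO, where 0.0564% were. The difference between the cKO effects of the 2 days was -5.20 (SE 2.17, p 0.0293, adjusted p 0.988) for Apol9b and -2.66 (SE 2.50, adjusted p 0.988) for Apol9a, neither of which passed the test. Without WT day 7 replicate 1, the Apol9b difference was -2.54 and that of Apol9a turned to 1.94. The change in cKO turned to 1.44 (Apol9a) and 1.36 (Apol9b) without cKO day 5 replicate 1, and that of Apol9a in WT from 1.99 to -2.61 without WT day 7 replicate 1. The direction of the change from day 5 to day 7 in cKO, and that of Apol9a in WT, rested on these 2 libraries.

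On day 8 the level without treatment was again low in WT, and IFNγ raised both genes in both genotypes. Untreated WT BMDMs had 0.110, 0.106 and 0 CPM of Apol9a, and the 2 cKO libraries 0.893 and 0.391 CPM (11 and 4 counts). Apol9b was at 0.549, 0.106 and 0.0875 CPM in WT and 3.90 and 5.38 CPM in cKO. Each cKO library was above each WT library for both genes. The log2 fold change of Apol9b was 4.21 (SE 0.57, adjusted p 0.00796), in a comparison that called 0.612% of 13075 genes, and Apol9a had 3.04 (SE 0.94, adjusted p 0.363). The call of Apol9b was lost without cKO replicate 2 (3.97, adjusted p 0.0826) or WT replicate 3 (3.76, adjusted p 0.0600).

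After 12 h of IFNγ, WT libraries had 0.965, 1.19 and 0.241 CPM of Apol9a and 7.18, 4.76 and 3.37 CPM of Apol9b, all above the untreated WT libraries. Log2 fold changes against untreated WT were 3.3 (SE 0.89, adjusted p 0.0140) and 4.37 (SE 0.54, adjusted p 0.000142), where 40.1% of genes were called. That of Apol9a was not called without untreated WT replicate 3 (2.69, adjusted p 0.0555). The 2 cKO libraries had 18.7 and 11.7 CPM of Apol9a and 38.0 and 56.4 CPM of Apol9b, the highest group means of the series for both genes. Against untreated cKO the log2 fold changes were 4.45 (SE 0.61, adjusted p 0.000433) and 3.38 (SE 0.41, adjusted p 0.000202), where 33.6% of genes were called. Under IFNγ, cKO exceeded WT by 4.20 (SE 0.54, adjusted p 0.00362) for Apol9a and 3.22 (SE 0.36, adjusted p 0.00190) for Apol9b, where 4.83% of genes were called. With only the 2 IFNγ groups in the model, Apol9a missed the threshold (4.23, adjusted p 0.0530). The IFNγ effect was not shown to differ between genotypes: the difference, cKO minus WT, was 1.16 (SE 1.76, adjusted p 0.860) for Apol9a and -0.99 (SE 0.72, adjusted p 0.687) for Apol9b.

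The smaller of the cKO IFNγ libraries, replicate 1 with 3614967 counts, was moved most by the scaling between libraries. Its Apol9b level was 38.0 CPM with TMM scaling and 17.4 CPM without, and its Apol9a level 18.7 and 8.58 CPM. On either scale it was above the WT libraries with IFNγ, whose unscaled Apol9b levels were 3.14 to 7.04 CPM. Without this library the 2 log2 fold changes between cKO and WT under IFNγ stayed on the same side of the threshold.

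In peritoneal macrophages, which matured in the animal and were taken without culture on L929-conditioned medium, both genes were again higher in cKO. Apol9a was at 0, 0.213 and 0.228 CPM in WT and 4.92, 1.64 and 1.82 CPM in cKO. Apol9b was at 0, 0.0710 and 0.319 CPM in WT and 5.31, 1.48 and 3.51 CPM in cKO. No cKO library overlapped with WT. Log2 fold changes were 4.0 (SE 0.73, adjusted p 0.0467) and 4.31 (SE 0.78, adjusted p 0.0466), close to the threshold, and 0.971% of 12361 genes were called. The replicate numbers paired these libraries in the data (correlations 0.144 to 0.194), and the calls were lost at 3.74 (adjusted p 0.116) and 4.33 (adjusted p 0.0585) once the replicate block was added. Leaving out any 1 of the 6 libraries also lost both calls, with log2 fold changes of 3.27 to 4.39 (adjusted p 0.0731 to 0.156) for Apol9a and 3.80 to 6.05 (adjusted p 0.0525 to 0.163) for Apol9b. The lowest value of each gene came without cKO replicate 1 and the highest without WT replicate 3. Peritoneal libraries carried 6881 to 11087 CPM of 6 peritoneal macrophage markers (Gata6, Timd4 and others), against at most 217 CPM in BMDMs.

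Blocking IFNAR1 lowered Apol9 reads in cKO BMDMs. Apol9a had 20, 4 and 2 counts in cKO without antibody (1.07, 0.320 and 0.140 CPM), 24, 2 and 4 counts with control antibody (0.666, 0.361 and 0.415 CPM) and no read in any of the 3 cKO libraries with the IFNAR1 antibody. WT libraries had 0 to 2 Apol9a counts in all arms. These counts were too few for the filter, so Apol9a was not fitted in this experiment. Pooled over libraries, it was at least 7.61-fold lower with the IFNAR1 antibody than with the control antibody in cKO, and at least 7.42-fold lower than without antibody.

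Apol9b was at 5.71, 2.24 and 1.40 CPM in cKO without antibody, 1.53, 2.35 and 1.35 CPM with control antibody, and 0.190, 0.236 and 0.191 CPM with the IFNAR1 antibody (3, 3 and 2 counts). The IFNAR1 libraries lay below all other cKO libraries of the experiment. WT libraries had 0 counts without antibody, 0, 1 and 0 counts with control antibody and 2, 0 and 1 counts with the IFNAR1 antibody. Within cKO, the log2 fold change of the IFNAR1 antibody was -2.99 (SE 0.65, adjusted p 0.0240) against control antibody, where 4.03% of 17191 genes were called, with a ratio of pooled counts of 0.130 (counting interval 0.0542 to 0.268). Against no antibody it was -3.89 (SE 0.62, adjusted p 0.0364), where 0.145% of genes were called, with a ratio of 0.0602 (0.0256 to 0.122). Control antibody against none gave -0.90 (SE 0.50, adjusted p 0.552), where 1.46% of genes were called. The call against control antibody was lost without control replicate 2 or 3 or IFNAR1 replicate 1 or 2 of cKO (log2 fold changes -2.78, -3.13, -2.92 and -3.09, adjusted p 0.0892, 0.0832, 0.103 and 0.0614). The call against no antibody was lost without 10 of the 18 libraries taken singly: each of the 3 cKO IFNAR1 libraries (adjusted p 0.107, 0.256 and 0.224), cKO no-antibody replicates 1 and 2 (0.217 and 0.0850), cKO control replicates 1 and 2 (0.0655 and 0.0637) and the 3 WT control libraries (0.0592, 0.0704 and 0.0661). Its log2 fold changes stayed between -4.24 and -3.10.

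Between genotypes, Apol9b in cKO was at least 68.5-fold higher without antibody (fitted log2 fold change 8.73, SE 0.95, adjusted p 0.000275, where 7.10% of genes were called). The fitted value depends on the added constant, since WT was at 0. With control antibody its log2 fold change was 5.80 (SE 0.88, adjusted p 0.00185, where 4.45% of genes were called). With the IFNAR1 antibody it was 1.98 (SE 0.93, adjusted p 0.432, where 0.675% of genes were called), from 8 counts in cKO against 3 in WT, and every cKO library was above every WT library. The IFNAR1 effect against control antibody differed between cKO and WT by -3.81 (SE 1.61, p 0.0327, adjusted p 0.821), which did not pass the test. In WT the counts were at or under 3 per arm, so a further decrease was not detectable at this depth.

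The 3 sets of BMDMs were sequenced most deeply and gave the smallest errors. In WT, Apol9a had 1 or 2 counts in set 1, 0 to 2 in set 2 and 0 or 1 in set 3, at most 0.0867 CPM. In cKO it was at 3.34, 2.45 and 2.48 CPM in set 1, at 4.38, 3.39 and 4.02 CPM in set 2, and at 1.23, 2.46 and 2.55 CPM in set 3. Apol9b in WT was at 0.0867 to 0.197 CPM in set 1, 0.253 to 0.413 CPM in set 2 and 0 to 0.217 CPM in set 3. In cKO it was at 11.1, 10.8 and 12.1 CPM, at 14.5, 18.2 and 13.2 CPM, and at 8.82, 10.8 and 10.7 CPM in sets 1, 2 and 3. All 9 cKO libraries were above all 9 WT libraries for both genes.

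The log2 fold changes of Apol9a were 5.60 (SE 0.43), 6.99 (SE 0.42) and 6.21 (SE 0.49) in sets 1, 2 and 3, with adjusted p of 1.53e-09, 1.71e-11 and 1.69e-09. Those of Apol9b were 6.38 (SE 0.29), 5.50 (SE 0.23) and 6.33 (SE 0.29), with adjusted p of 1.97e-13, 3.41e-14 and 3.50e-13. All 6 were called, in comparisons where 34.7%, 21.0% and 34.9% of 18083 genes were called, and by size Apol9a stood in places 32, 9 and 17 and Apol9b in places 18, 23 and 15. No left-out library or other setting tried ended any of the 6 calls. Markers of other cells moved with genotype here. Summed over 9 genes, neutrophil markers were at 284 to 352 and 264 to 386 CPM in cKO against 109 to 164 and 104 to 167 CPM in WT in sets 1 and 3, and at 188 to 209 against 137 to 215 CPM in set 2. The 5 dendritic cell markers were at 11.2 to 14.3, 4.93 to 5.39 and 10 to 15.6 CPM in cKO of sets 1, 2 and 3 against 4.04 to 6.07, 2.27 to 3.38 and 4.75 to 6.01 CPM in WT. The 6 B cell markers were at 7.86 to 10.6, 12.5 to 14.7 and 5.90 to 12.8 CPM in cKO against 2.69 to 6.90, 4.12 to 6.08 and 2.77 to 5.47 CPM in WT. The 8 macrophage markers were lower in cKO of sets 2 and 3 without overlap, at 5080 to 5550 and 4590 to 4750 CPM against 6843 to 6854 and 5325 to 7999 CPM. At most 1 gene of each of these lists was at 0 in a library. In set 3 the 6 stromal markers (23.7 to 33.6 against 11.5 to 15.5 CPM) and the 6 peritoneal macrophage markers (89.7 to 132 against 28.1 to 62.3 CPM) also did not overlap. The part of these cells in the Apol9 levels was not tested.

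The libraries labelled as double KOs kept high Apol9 levels. In H3.3cKO:StingKO Apol9a was at 5.64, 6.99 and 7.88 CPM and Apol9b at 20.8, 22.3 and 25.9 CPM, all above the 9 cKO libraries of the sets. Against the mean of the 3 cKO sets the log2 fold changes were 1.27 (SE 0.17, adjusted p 8.31e-06) and 0.93 (SE 0.13, adjusted p 8.04e-06), where 36.1% of genes were called. Each set alone as the reference kept both calls, with log2 fold changes of 0.80 to 1.70 for Apol9a and 0.59 to 1.19 for Apol9b. Stromal markers were at 164 to 202 CPM in these libraries against 23.7 to 70.3 CPM in the cKO sets, with all 6 higher, and their part was not tested. In the libraries labelled H3.3cKO:MavsKO, Apol9a was at 4.37, 3.97 and 3.31 CPM and Apol9b at 14.6, 14.9 and 11.8 CPM, within the range of the cKO sets. Log2 fold changes were 0.46 (SE 0.18, adjusted p 0.130) and 0.19 (SE 0.13, adjusted p 0.441), where 8.79% of genes were called. The Mavs values depended on the reference: they were -0.02 and -0.15 against set 2 alone, and Apol9a was called against set 3 alone (0.89, adjusted p 0.00876). Stromal markers were higher in these libraries too, at 83.2 to 295 CPM, and neutrophil markers lower, at 99.2 to 155 CPM against 188 to 386 CPM in the cKO sets.

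In H3.3cKO:Irf7KO the levels were the lowest of the double KOs, with Apol9a at 1.22, 1.65 and 1.38 CPM and Apol9b at 8.24, 9.40 and 9.85 CPM. They overlapped with cKO set 3 for both genes. Neutrophil markers were lower too, at 153 to 165 CPM against 188 to 386 CPM in the cKO sets, and so were B cell markers, at 3.68 to 5.61 against 5.90 to 14.7 CPM. Their part in the Apol9 levels was not tested. Apol9a had a log2 fold change of -0.99 (SE 0.21, adjusted p 0.00332) against the cKO sets, where 9.85% of genes were called. It was called against set 1 alone (-0.96, adjusted p 0.0183) and set 2 alone (-1.47, adjusted p 0.000118), and not against set 3 alone (-0.56, adjusted p 0.398). Set 3 is the one listed just before these libraries. Of the sets taken alone, it gave the fewest called genes (161), as set 2 did for H3.3cKO:MavsKO (88) and set 1 for H3.3cKO:StingKO (4069). Apol9b had -0.40 (SE 0.14, adjusted p 0.0722), not called. It was called against set 2 alone (-0.74, adjusted p 0.00248) and not against set 1 (-0.31, adjusted p 0.268) or set 3 (-0.14, adjusted p 0.869), and without WT set 3 replicate 1 or 2 in the model (-0.40 and -0.40, adjusted p 0.0491 and 0.0244). The libraries of all 3 labels were far above WT: log2 fold changes against the mean of the WT sets were 7.54, 6.72 and 5.27 for Apol9a and 7.0, 6.26 and 5.67 for Apol9b in those labelled for Sting, Mavs and Irf7 (adjusted p from 3.15e-19 to 2.22e-11), where 40.3%, 42.6% and 31.5% of genes were called. These comparisons share the cKO and WT sets.

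**Figure D2:**
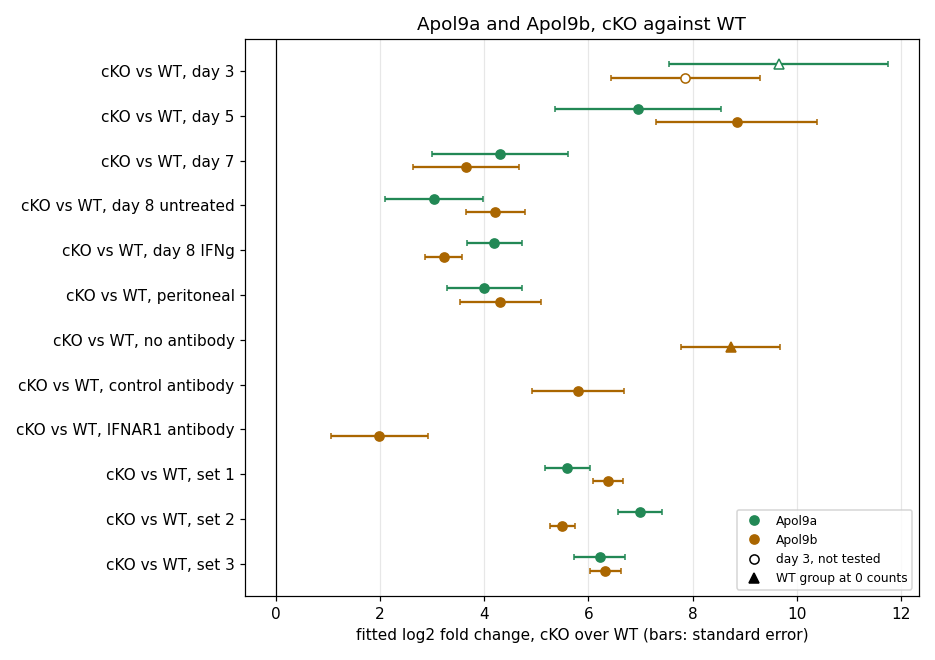
Fitted log2 fold change of cKO over WT with its SE for Apol9a and Apol9b in each comparison. Open symbols mark day 3, which was not tested, triangles mark comparisons whose WT group had 0 counts, and Apol9a is absent from the antibody experiment, where it did not pass the filter. The values lie between 1.98 for Apol9b under the IFNAR1 antibody and 9.65 for Apol9a on day 3, and the error bars are shortest in the 3 sets.

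In the other comparisons between genotypes, these summed marker levels did not overlap. On day 3, B cell markers were at 27.4 to 57.4 CPM in cKO against 13.4 to 14.3 CPM in WT, and peritoneal macrophage markers at 84.1 to 117 against 21.8 to 44.2 CPM. On day 5, peritoneal macrophage markers were at 52.7 to 119 against 16.6 to 19.9 CPM, stromal markers at 68.3 to 96.7 against 13.3 to 42.9 CPM and dendritic cell markers at 4.56 to 7.58 against 3.40 to 4.53 CPM. On day 7, stromal markers were at 87.9 to 126 against 4.59 to 41.4 CPM, and macrophage markers were lower in cKO, at 4351 to 5398 against 5696 to 9274 CPM. With IFNγ, stromal markers were at 55.9 to 353 against 9.0 to 52.2 CPM, and B cell and dendritic cell markers differed at no more than 8.63 CPM. In peritoneal macrophages, their own markers were at 9907 to 11087 against 6881 to 9129 CPM. Neutrophil markers were higher in cKO in each antibody arm, at 74.1 to 96.6 against 36.4 to 66.1 CPM without antibody, 104 to 213 against 60.6 to 78.4 CPM with control antibody and 114 to 139 against 58.3 to 83.3 CPM with the IFNAR1 antibody, with up to 5 of the 9 genes at 0. With control antibody B cell (6.69 to 7.68 against 1.98 to 4.48 CPM) and peritoneal macrophage markers (130 to 179 against 61.7 to 104 CPM) were higher as well. T and NK cell markers, at most 12.1 CPM, were apart on day 7, with IFNγ and without antibody. Within cKO, stromal markers were at 42.9 to 87.5 CPM with the IFNAR1 antibody and 165 to 307 CPM with control antibody, peritoneal macrophage markers at 82.3 to 123 and 130 to 179 CPM, and macrophage markers at 4587 to 5325 and 3311 to 3955 CPM. Against no antibody within cKO, neutrophil markers were apart, at 114 to 139 CPM with the IFNAR1 antibody and 74.1 to 96.6 CPM without. Whether these cells have a part in the Apol9 levels was not tested.

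Ordered by mean level over the 27 groups, cKO with IFNγ came first for both genes (15.2 CPM, SD 4.99, n = 2 for Apol9a, and 47.2 CPM, SD 13, n = 2 for Apol9b) and did not overlap with the next group, H3.3cKO:StingKO (6.84 CPM, SD 1.13, and 23 CPM, SD 2.62, n = 3). Then followed cKO on day 3, cKO on day 5, cKO set 2, H3.3cKO:MavsKO and cKO on day 7, in this order for both genes and each overlapping with its neighbour. WT with IFNγ took place 12 for Apol9a (0.799 CPM, SD 0.496, n = 3) and 11 for Apol9b (5.11 CPM, SD 1.93, n = 3). It overlapped with untreated cKO of day 8 (0.642 CPM, SD 0.355, and 4.64 CPM, SD 1.05, n = 2) in both orders. The levels were set across experiments that were scaled separately, and peritoneal libraries were made with another kit, so this order is a description.

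The interferon response as a whole was followed with 20 canonical effector genes (Isg15, Ifit1, Mx1, Oas2, Rsad2 and others), many of which encode proteins that act against virus replication. Apol9b was low in WT relative to their summed level. In 30 WT libraries without IFNγ or IFNAR1 antibody, Apol9b was at 0 to 0.992 CPM for each 1000 CPM of the effector genes. In 26 cKO libraries of cultured cells without these agents it was at 1.40 to 8.06, and in the 3 cKO peritoneal libraries at 1.44 to 4.81. Both genotypes include the day 3 libraries, which chose the genes. WT day 3 replicate 1, with 3 counts, gave the value of 0.992, and cKO day 3 gave 5.18 to 7.52. In the other WT libraries the highest value was 0.727 (WT day 7 replicate 1). The 2 genotypes did not overlap on this measure of Apol9b, with or without day 3. For Apol9a they did: WT reached 0.385 (peritoneal) and 0.344 (control antibody), and cKO went down to 0.160 (untreated, day 8) and 0.163 (no antibody), from 1 to 5 counts in these libraries. In the double KOs, Apol9b lay at 2.43 to 7.32 on this measure and Apol9a at 0.359 to 2.23.

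The difference was also seen between libraries chosen for their effector level. WT day 7 replicate 1 had 3443 CPM of the effector genes, within the 2470 to 3824 CPM of the cKO day 7 libraries, but 2.50 CPM of Apol9b against 6.27 to 21.9 CPM. WT BMDMs with IFNγ had 17613 to 22594 CPM of the effector genes against 2449 to 2479 CPM in untreated cKO, while Apol9b was at 3.37 to 7.18 CPM in the former and 3.90 to 5.38 CPM in the latter. Per 1000 CPM of effector genes, Apol9b under IFNγ was at 0.191 to 0.385 in WT and at 1.40 to 1.80 in cKO. With the IFNAR1 antibody cKO cells had 0.309 to 0.597, from 2 or 3 Apol9b counts per library. Their effector genes were at 395 to 616 CPM, against 136 to 183 CPM in WT with this antibody. The cKO ratios were inside the 0 to 0.992 of WT libraries without IFNγ or this antibody. Among WT libraries with the same antibody, which had 0 to 2 Apol9b counts, none reached cKO replicate 2. The highest of them was above cKO replicates 1 and 3. This ratio was looked at after the levels of both were known, and it was not tested.

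**Figure D3:**
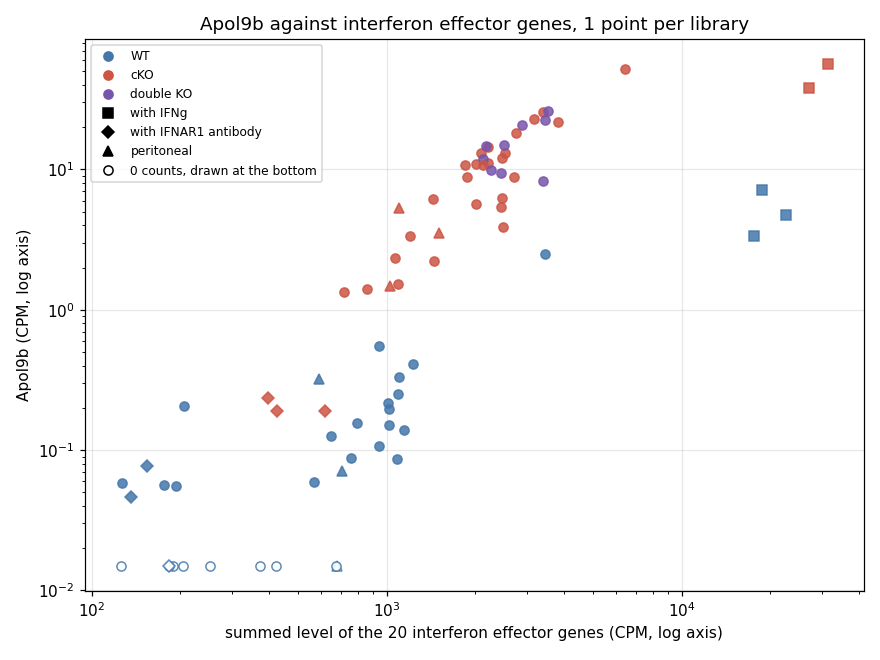
Apol9b in CPM against the summed CPM of 20 interferon effector genes, both on log axes, 1 point per library with colour and shape by genotype and treatment. Libraries with 0 Apol9b counts sit at the bottom edge. At a given effector level the double KO points and the cKO points without the IFNAR1 antibody lie above the WT points. The WT libraries with IFNγ lie to the right at 17613 to 22594 CPM of effector genes. The cKO libraries with the IFNAR1 antibody lie among the WT points in Apol9b.

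Counts were divided unequally between the 2 genes. In the 38 libraries of cultured cells with at least 30 Apol9 counts, 6.67% to 33.0% fell on Apol9a, with a median of 19.6%. In the 3 peritoneal cKO libraries with as many, the share was 48.1%, 52.5% and 34.1%, above each of these cultured libraries. The separation was narrow at its edge. The share of 34.1% came from 14 Apol9a and 27 Apol9b counts, and the highest cultured share, 33.0%, from 31 and 63 counts. The share was 12.9%, 14.9% and 12.3% in H3.3cKO:Irf7KO, and 12.3% to 23.2% in the 9 cKO libraries of the sets. In the untreated cKO libraries of day 8 it was 18.6% and 6.78%, from 11 of 59 and 4 of 59 counts. Tissue, culture and library kit all differ between the peritoneal and the cultured libraries and cannot be told apart. Because reads from shared stretches are not counted, the share describes the counted reads rather than the transcripts.

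**Figure D4:**
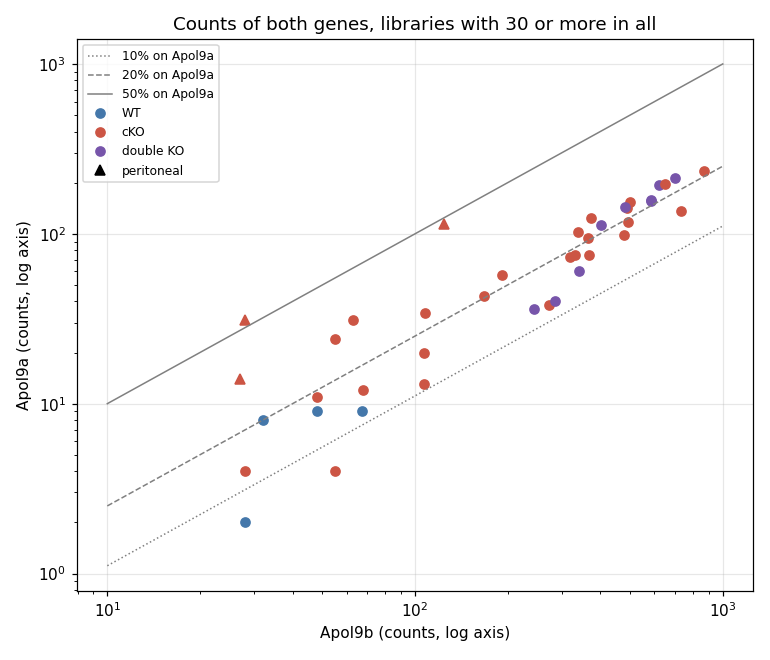
Apol9a counts against Apol9b counts on log axes in libraries with at least 30 Apol9 counts, with lines where 10%, 20% and 50% of them fall on Apol9a. The peritoneal cKO libraries lie at 48.1%, 52.5% and 34.1%, and the cultured libraries between 6.67% and 33.0%.

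The rest of the interferon pathway was counted by role in the sets, where errors were smallest. Of 8 interferon ligand genes, only Ifnk had enough reads to be tested in the sets, with log2 fold changes of -0.83, -1.21 and -0.88 that were not called. Ifnb1, the gene of interferon-β, could be fitted in the time course. Its level on day 3 was 0 to 0.0682 CPM in WT and 0.836 to 2.77 CPM in cKO (log2 fold change 5.77, not tested), and on days 5 and 7 its log2 fold changes were 3.35 (adjusted p 0.304) and 2.5 (adjusted p 0.499). With IFNγ on day 8, where it did not pass the filter, Ifnb1 was at 0 to 0.361 CPM in WT and 1.81 and 6.95 CPM in cKO. Of 7 receptor and kinase genes (Ifnar1, Ifnar2, Ifngr1, Ifngr2, Jak1, Jak2 and Tyk2), 1, 2 and 0 were called higher in cKO and 3, 1 and 3 lower in sets 1, 2 and 3. Of all genes tested, 18%, 9.74% and 16.9% were called higher and 16.7%, 11.3% and 18% lower in these sets. Among transcription factor genes, Stat2 had log2 fold changes of 0.81, 0.94 and 0.74 and Irf7 of 2.44, 1.45 and 2.36, both called in each set. Irf9 was called in set 2 alone (0.32), with 0.16 and 0.15 in sets 1 and 3. Irf1 had -0.02, 0.53 and -0.11 and Irf3 -0.10, -0.02 and -0.02, none called. Of 3 feedback inhibitors (Socs1, Socs3, Usp18), 2 were called higher in each set. Of the 20 effector genes, 18, 19 and 16 were called higher and none lower, with median log2 fold changes of 1.22, 1.25 and 1.06. The counts of the short lists rested on single libraries: in set 1 no receptor or kinase gene was called higher without cKO replicate 2 or WT replicate 2 or 3, in set 2 only 1 was without cKO replicate 1 or 3 or WT replicate 2 or 3, and only 1 feedback inhibitor was called higher in set 2 without cKO replicate 1 or WT replicate 1 or 3. A single effector gene was called lower in set 2 without cKO set 2 replicate 2, WT set 1 replicate 1 or 3, or WT set 3 replicate 1. The log2 fold changes of Apol9a and Apol9b, 5.50 to 6.99, were several times these medians, beside medians of -0.03, -0.01 and -0.05 over all genes tested. The genes were chosen by a large rise of Apol9a in cKO on day 3, so a value above a list median is a description only. Those of Apol9a rest on 4, 3 and 2 WT counts in sets 1, 2 and 3.

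In the antibody experiment, 19 of the 20 effector genes were called higher in cKO without antibody, 19 with control antibody and 15 with the IFNAR1 antibody, against 3.39%, 2.88% and 0.477% of all genes called higher. The last count was 9 without WT IFNAR1 replicate 2, and it was 2 with only the 2 IFNAR1 groups in the model. Within cKO, the median log2 fold change of the effector genes was -0.55 for the IFNAR1 against the control antibody, with 3 of the 20 positive, and -1.63 against no antibody, with 0 positive. Those of Apol9b were -2.99 and -3.89, and the medians over all genes tested were 0.0060 and 0.0069. Irf7 was higher in cKO in all 3 arms (3.51, 4.37 and 3.22, adjusted p 0.00360, 0.00114 and 0.0257), and with the IFNAR1 antibody its call was lost without WT IFNAR1 replicate 1 (3.19, adjusted p 0.126) or 2 (3.56, adjusted p 0.0647).

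Among 11170 genes that passed the filter in all 5 experiments, the genes most like each Apol9 gene were found by Pearson's r of log2 CPM over the 79 libraries, with the mean of each experiment subtracted. The libraries share genotypes, batches and depth, so r is a description. Apol9a was most like Apol9b (0.950), followed by Slfn4 (0.906), a schlafen gene of myeloid cells, Resf1 (0.867), a gene of retroelement silencing, H2-Q6 (0.865), an MHC class Ib gene, and Ramp3 (0.854). For Apol9b the genes other than Apol9a nearest to it were Slfn4 (0.949), Oasl1 (0.916), of the oligoadenylate synthetase-like family, Ly6a (0.910), which encodes the surface antigen Sca-1, Ifi44 (0.902) and Slfn1 (0.893). Irf7 (0.850) was in place 26 for Apol9b and in place 58 (0.773) for Apol9a. With the 18 time course libraries left out, Slfn4 stayed first for Apol9b (0.945) and Apol9b first for Apol9a (0.938), but most of the genes after them changed. For Apol9a, Plac8 (0.883), Itgb7 (0.877) and Atp10a (0.848) took the places of Resf1, H2-Q6 and Ramp3, and for Apol9b, Ifi206 (0.905), Plac8 (0.897) and Atp10a (0.893) took those of Oasl1, Ifi44 and Slfn1.

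The other Apol genes gave few reads. Of 13 Apol family genes on the list, Apol9a, Apol9b and Apol7c were the only ones with more than 19 counts in any placed library. Apol6, Apol7c and Apol10b, which had no reads in untreated WT BMDMs of day 8, were at 0.750 to 1.32, 0.750 to 4.32 and 0.965 to 1.93 CPM after IFNγ in WT, which gave 6.12, 7.26 and 6.65 on the log2 scale (adjusted p 0.00269, 0.00220 and 0.00251). These fitted values depend on the added constant. In cKO, IFNγ raised Apol6 (4.71, adjusted p 0.00853) and Apol10b (5.79, adjusted p 0.0244) from 0 or 1 counts, and Apol7c was not called. Apol6 lost its call without cKO IFNγ replicate 2 (3.36, adjusted p 0.244) or untreated cKO replicate 1 (3.74, adjusted p 0.0764), and Apol10b without untreated cKO replicate 1 or 2 (5.77 and 5.81, adjusted p 0.0930 and 0.0769). Between genotypes, Apol7c was higher in cKO in sets 1 and 3, at log2 fold changes of 1.66 (adjusted p 0.00844) and 1.22 (adjusted p 0.0430). The first was lost without WT set 1 replicate 2 (1.27, adjusted p 0.0582). The second was lost without cKO set 3 replicate 1 or 2 (1.27 and 0.91, adjusted p 0.0614 and 0.187), without WT set 3 replicate 1 or 2 (1.18 and 0.98, adjusted p 0.102 and 0.144) and when numbers were blocked (1.2, adjusted p 0.0538).

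The annotated genes next to the Apol9 genes stayed near 0. Apol7a, 4679 bases from Apol9a, had at most 1 count in a library and Apol7b, 11074 bases away on the other side, at most 2. Beside Apol9b, Gm36329 had no read, Gm49410, 4379 bases away, at most 4 counts, Apol7e, 9754 bases away, at most 19, and Apol8, 11416 bases away, at most 16. With so few reads, the neighbours could not be compared between genotypes, while the Apol9 genes between them reached 235 and 871 counts.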

How the data were processed

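Labels gave genotype, day, treatment and replicate number for 79 of 81 libraries. The other 2, cKO libraries of day 8 whose title and library name disagree on IFNγ, entered no comparison. The authors trimmed reads with Cutadapt, aligned them with STAR to mm10 (the assembly also called GRCm38; versions not given in the sources used here) and deposited raw counts per gene, without normalization. The column that ignores strand was used, and Apol9 reads fell evenly on both strands (50.7% and 50.5% on strand 1). Unmapped, multimapping, no-feature and ambiguous reads were removed before totals were taken, and had median shares by experiment of 1.76% to 16.1%, 6.37% to 12.5%, 4.78% to 25.0% and 4.26% to 6.01%. The study's methods give rRNA depletion with NEBNext Ultra II for BMDMs and a SMART-Seq kit for peritoneal macrophages. No libraries of a group were alike enough to be duplicates.

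Each experiment was fitted in 1 model over all its groups with edgeR 4.0.16 (limma 3.58.1, R 4.3.3): filterByExpr (smallest count 10, smallest total 15), TMM scaling, the quasi-likelihood test and Benjamini-Hochberg adjustment over all genes tested, with the threshold at 0.05. An SE is the fold change divided by the root of F. Ratios of pooled counts carry exact 95% intervals for counting error only, and a group at 0 was set to 3 counts over the group. The steps were tested on simulated data. The members, lists and comparisons were chosen with earlier results of these data known. The genes named are the members, the other Apol genes, interferon transcription factors (a member of that list is not reported here), the targeted genes, the 5 genes most like each member, those ranked next to Apol9a on day 3 and the nearest annotated genes.

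Replicate numbers were taken to pair libraries where every same-numbered pair deviated together from its group means (correlation over 0.1). This held in the data, and not by the labels, for cKO against WT on days 3 and 7 and in peritoneal macrophages, day 7 against 5 in cKO, IFNγ against untreated in WT, the IFNAR1 antibody against none in cKO and control antibody against none in WT. On days 3 and 7, however, cKO replicate 2 correlated more with a WT library of another number (0.214 and 0.359) than with that of its own (0.126 and 0.153). Alternatives were DESeq2 1.42.0, RLE scaling, no filter, a mean of at least 1 CPM, the larger strand column, models of only the groups compared, a replicate block, each library left out, each set alone as reference, and both genes summed. Counts over the interferon lists, the values of the other named genes and a crossed block were added after seeing the data.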

Additional observations from a re-analysis of the deposited data

Results flagged for a closer look

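Apol9 reads were also present in the 2 day 8 cKO libraries whose title and library name disagree on IFNγ. The library titled with IFNγ had 6 Apol9a and 27 Apol9b counts, which is 0.620 and 2.79 CPM without scaling between libraries. The library titled without IFNγ had 104 and 424 counts, or 9.91 and 40.4 CPM. Both were above the 3 untreated WT libraries, which had 0 to 0.137 CPM of Apol9a and 0.109 to 0.686 CPM of Apol9b on the same scale. The placed cKO libraries had 0.466 to 1.11 CPM of Apol9a and 4.86 to 6.41 CPM of Apol9b without treatment, and 8.58 to 10.4 and 17.4 to 50.2 CPM with IFNγ. No group was assigned from these values, and the libraries were used in no comparison.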

How the results depend on the processing

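The 47 log2 fold changes of the Apol9 genes, of which 30 were called, were recomputed wherever an alternative applied (38 of them with only the groups compared, 40 with a mean of at least 1 CPM, 16 with a block within genotype and 12 with each set alone). With RLE scaling all 47 kept direction and call, and with DESeq2 45 did. The causes of the changes below were not tested. Restricting each model to the groups compared ended the calls for Apol9a on day 5 (6.97) and under IFNγ (4.23), and for Apol9b on day 5 (8.86) and with the IFNAR1 antibody against none in cKO (-3.88), while Apol9b in the Irf7 double KO against cKO was called (-0.37). Without a filter, day 7 was called (4.32 for Apol9a and 3.66 for Apol9b), as were Apol9a in untreated day 8 cells (3.07) and Apol9b in the Irf7 double KO (-0.38). The replicate block called day 7 (4.45 and 4.10) and lost peritoneal macrophages (3.74 and 4.33), and changed no other call. A mean of at least 1 CPM also lost peritoneal macrophages (4.0 and 4.31). DESeq2 called Apol9b on day 7 (3.71) and in the Irf7 double KO (-0.38). The larger strand column lost Apol9b for the IFNAR1 antibody in cKO (-3.31 against control antibody, -4.28 against none). With both genes summed, untreated day 8 cells (4.06) and the Irf7 double KO (-0.49) were called, and the difference in IFNγ effect of Apol9a turned to -0.65. Against set 2 alone the Mavs values turned to -0.017 and -0.15, and Apol9b in the Irf7 double KO was called (-0.74). Against set 3 alone Apol9a lost its call in the Irf7 double KO (-0.56) and gained it in those labelled MavsKO (0.89).

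With 1 library left out, 860 of 904 refits kept direction and call. For Apol9a the ranges of results with a change were 4.85 to 7.49 on day 5, 3.13 to 8.90 on day 7, -3.83 to 1.94 for the difference between these days, -1.84 to 1.44 (cKO) and -2.61 to 2.58 (WT) from day 5 to 7, 3.27 to 4.39 in peritoneal macrophages and 2.69 to 3.74 for IFNγ in WT. For Apol9b they were 6.76 to 9.35 on day 5, 2.94 to 6.31 on day 7, -1.44 to 1.36 from day 5 to 7 in cKO, 3.76 to 5.38 in untreated day 8 cells, 3.80 to 6.05 in peritoneal macrophages, -3.13 to -2.78 (control antibody) and -4.24 to -3.10 (no antibody) for the IFNAR1 antibody in cKO and -0.45 to -0.33 in the Irf7 double KO. An arm left with 1 library was assumed to vary like the other groups. Without the filter Apol9a could be fitted in the antibody experiment, with 3.74 (adjusted p 0.0279) without antibody, 3.31 (0.109) with control antibody and -6.13 (0.0180) for the IFNAR1 against the control antibody in cKO, the last depending on the added constant. Crossing the cKO IFNγ numbers, whose correlation was -0.187, left 4321 genes called for IFNγ in cKO, against 3623 with the uncrossed block and 4399 without a block.

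Counts of called genes, the background of the report, also moved. With DESeq2 they were 741 (451 in edgeR) on day 5, 744 (223) on day 7, 216 (80) untreated and 1525 (631) with IFNγ on day 8, 336 (120) in peritoneal macrophages, and 2206 (1221), 1149 (765) and 312 (116) without antibody, with control and with IFNAR1 antibody. With only the groups compared they were 131, 13, 367 and 17 in the first 4 of these, 3384 and 7 with control and IFNAR1 antibody, and 4158 (6318) in set 3. Without a filter they were 737, 702, 355, 1534 and 563 in the first 5, and with the replicate block 399 on day 7 and 153 with IFNγ. From day 5 to 7, where 38 (WT) and 9 (cKO) genes were called, DESeq2 called 618 and 100. For IFNγ in cKO only the groups compared gave 1097 (4399). In cKO the IFNAR1 against the control antibody gave 1266 with DESeq2 and 207 with only the groups compared (692), and against none 80 with DESeq2, 63 without a filter, 44 with the block and 0 in edgeR with only the groups compared (25), where 696 genes had an unadjusted p under 0.05. Control antibody against none gave 667 with DESeq2 (251). Against cKO, the Irf7 double KO had 3545 and 161 with sets 2 and 3 alone (1782), the libraries labelled MavsKO 88 and 3268 (1589) and the Sting double KO 4069 with set 1 alone (6528). In r, group means moved H2-Q6 and Resf1 with Apol9a to 0.922 and 0.928. Depth limits the WT levels, most of which rest on 0 to 3 reads.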
